A study of Mus musculus with 3 samples.

Results

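The WNT genes of mouse melan-a cells were 52 genes, chosen by symbol from the 22698 genes that had a value. They comprised 19 WNT ligands, 10 Frizzled receptors, the coreceptors Lrp5, Lrp6, Ror1 and Ryk, 9 secreted antagonists of the Dkk, Sfrp and Wif families, 3 Dishevelled genes, 3 genes of the beta-catenin destruction complex and the 4 TCF/LEF factors. The rule used symbols alone. melan-a is an immortalized and pigmented melanocyte line on the C57BL/6J background. Per the labels, the melanocytes came from Ink4a-ARF-/- mice. The cells were grown without further treatment in RPMI medium with 10% fetal bovine serum, 200 nM TPA (a phorbol ester that acts on protein kinase C) and 200 pM cholera toxin (which raises cyclic AMP), so all libraries carried both agents. RNA-seq was performed on 3 bioreplicates of this single condition, labelled 1, 3 and 4, and the data therefore hold levels of genes and their spread but no comparison between conditions. The labels do not say whether the bioreplicates are separate isolates of the line, so their spread may be technical.

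WNT proteins are secreted, lipid-modified ligands that bind Frizzled receptors together with a coreceptor. In the canonical branch, Lrp5 or Lrp6 and Dishevelled take the Axin-Apc complex out of action, beta-catenin accumulates, and TCF/LEF factors turn from repression to activation at their target genes. In the neural crest this branch induces melanocytes, and Mitf and Dct are known targets of LEF1 in that lineage, while ligands such as Wnt5a act mainly through Ror and Ryk receptors without beta-catenin.

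Levels are given as FPKM, that is, reads divided by gene length and library size, so that genes of different length can be set side by side. From the steps between low values, the libraries corresponded to scaled sizes of 53900000, 47000000 and 66400000 reads in replicates 1, 3 and 4. At these sizes, 3 reads on a gene of 1 kb came to 0.0557, 0.0638 and 0.0452 FPKM. The sizes include the scaling of the values by the authors and need not equal the reads sequenced. The library with the smallest scaled size is called the shallowest below. The melanocyte label was met by its markers, since 8 of 9 were at 1 FPKM or more in all replicates, with Tyrp1 at 3331.02, 2647.80 and 3452.01 FPKM and Dct at 1430.51, 1307.95 and 1497.94 FPKM, whereas Kit had a mean of 0.680 FPKM. Markers of keratinocytes (0 of 5), endothelium (0 of 4) and immune cells (0 of 4) were all below that level in at least 1 replicate, and the highest of these was the macrophage gene Cd68 at 1.20, 0.76 and 1.60 FPKM. The keratin genes Krt10 and Krt5 were at 0.29 to 0.67 and 0 to 0.04 FPKM, and the endothelial genes Kdr and Pecam1 at 0.02 FPKM or less. Of 6 fibroblast markers only Col1a1 reached 1 FPKM in all replicates (1.51, 1.77 and 1.33), and Col3a1 was at 0.09 to 0.13 FPKM. Cdkn2a, the gene of Ink4a and ARF, was at 19.24, 16.49 and 24.32 FPKM. A value for the whole gene cannot tell its exons apart and does not check the genotype.

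Of the 52 WNT genes, 24 (46.2%) were at 1 FPKM or more in all 3 replicates, beside 44.1% of all genes. A further 10 (19.2%) were listed at 0 in all replicates, beside 31.4% of all genes, and 18 lay between. The median of the members' mean levels was 0.628 FPKM, compared with 0.277 FPKM for all genes, and their median rank was 10696.5 of 22698. The roles were unequal. All 10 genes of the Dishevelled, destruction complex and TCF/LEF groups passed the level of 1 FPKM, as did 8 of 10 Frizzled genes and 3 of 4 coreceptors, but only 2 of 9 antagonists and 1 of 19 ligands did. Levels of 10 FPKM or more in all replicates were found for 10 members, namely 1 Frizzled gene, 3 coreceptors, 2 antagonists, 3 Dishevelled genes and Tcf7l1.

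**Figure D1:**
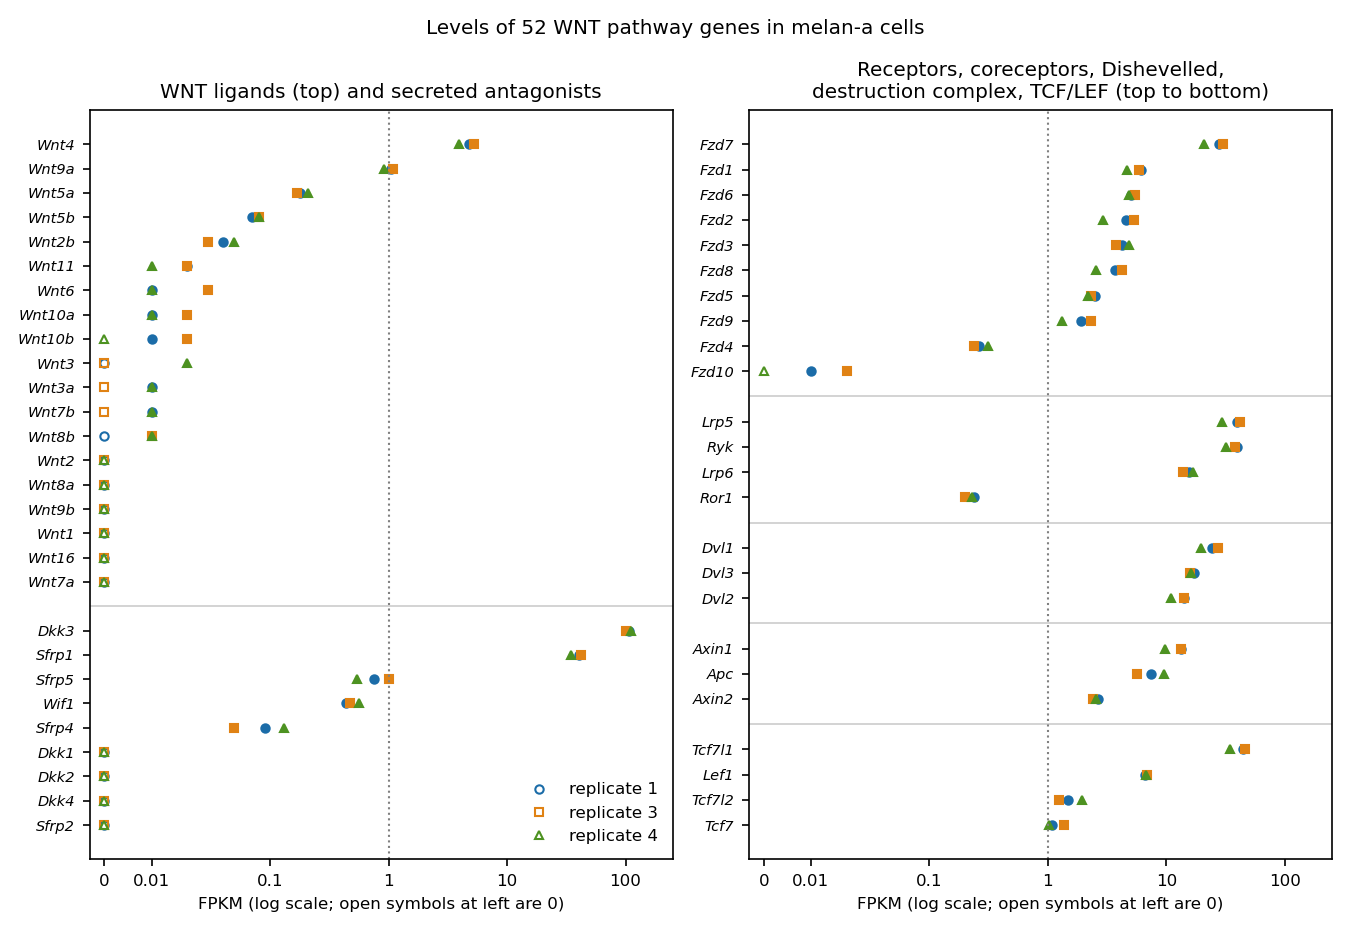
FPKM of each of the 52 genes in replicates 1, 3 and 4 of melan-a cells, on a log axis, with 1 symbol per replicate, open symbols for values of 0 and a dotted line at 1 FPKM. Ligands and antagonists are on the left and the remaining roles on the right. Most ligands lie at the left edge, whereas Dkk3, Sfrp1, Tcf7l1, Lrp5, Ryk and Fzd7 lie at 20 FPKM or above in every replicate.

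The ligands were led by Wnt4, which was measured at 4.79, 5.29 and 3.94 FPKM in replicates 1, 3 and 4 (4.67 ± 0.683, SD, n = 3). Wnt4 (ENSMUSG00000036856, chr4:136833404-136855641, mm9, plus strand) encodes a ligand best known from kidney and gonad development. It was followed by Wnt9a at 1.04, 1.09 and 0.91 FPKM (1.01 ± 0.0929, SD, n = 3). The ranges of these 2 genes were apart, with Wnt4 4.60 ± 0.262 times as high as Wnt9a and higher in 3 of 3 replicates. The summed FPKM of all 19 ligands was 6.07 ± 0.752 (SD, n = 3), of which Wnt4 made up 76.8% ± 1.82 and Wnt9a 16.7% ± 0.575.

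Among the remaining ligands, Wnt5a, the main ligand of the branch without beta-catenin, was at 0.18, 0.17 and 0.21 FPKM (0.187 ± 0.0208, SD, n = 3). Its paralog Wnt5b was at 0.07, 0.08 and 0.08 FPKM. Wnt2b was at 0.03 to 0.05 FPKM, above the level of 3 reads on its exons. A group of 8 ligands, Wnt11, Wnt6, Wnt10a, Wnt10b, Wnt3, Wnt3a, Wnt7b and Wnt8b, had means of 0.00667 to 0.0167 FPKM, each below the level of 3 reads in the shallowest library. In single libraries, 3 reads were passed by Wnt11 (about 3.9, 3.4 and 2.4 reads in replicates 1, 3 and 4) and by Wnt3 (4.1 reads in replicate 4, listed at 0 in the others). The other 6 stayed under 3 reads in every library. These read numbers come from values rounded to 2 decimals and are approximate. The last 6, Wnt1, Wnt2, Wnt7a, Wnt8a, Wnt9b and Wnt16, were listed at 0 in all replicates. Hence Wnt1 and Wnt3a, the ligands with known roles in the induction of melanocytes from the neural crest, were at 0 or under 3 reads in these cells. For the 10 members of any role listed at 0, the value of 3 reads in the shallowest library was between 0.0102 and 0.0489 FPKM, which is the level that a count of 0 allows, counting error alone being covered.

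The bases just upstream of both leading ligands are shown because they were 2 of the 13 windows of WNT genes with the letters GCCNNNGGC. These letters are a form of the site of the TFAP2 factors on which the study centres. The paper gives that site as the shorter GCCNNNGG, which was not searched. All counts of these letters are therefore of the longer form alone. Each window ends 1 base before the 5′-most start of a coding transcript in mm9 and is written 5′ to 3′ on the strand of the gene, with matches to GCCNNNGGC in capitals. No TFAP2 binding was measured in the RNA-seq. The paper measured TFAP2A binding in melan-a cells by ChIP-seq, which was not used here, and the letters do not stand in for it. Its list of mouse coat color genes ties Lef1 and Apc to active peaks of both TFAP2A and MITF, and Fzd4 to MITF alone. The MITF peaks of that list are from human primary melanocytes. The TFAP2A peak of Lef1 is marked as found in mouse but not human melanocytes, and Apc lacks that mark. Neither gene is marked as having TFAP2A and MITF peaks that overlap.
Wnt4, chr4:136833154-136833403 (+): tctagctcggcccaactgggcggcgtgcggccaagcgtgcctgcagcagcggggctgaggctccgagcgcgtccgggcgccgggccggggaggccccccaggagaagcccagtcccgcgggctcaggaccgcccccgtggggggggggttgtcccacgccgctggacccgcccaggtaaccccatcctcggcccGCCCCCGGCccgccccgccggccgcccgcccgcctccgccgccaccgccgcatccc
Wnt9a, chr11:59120180-59120429 (+): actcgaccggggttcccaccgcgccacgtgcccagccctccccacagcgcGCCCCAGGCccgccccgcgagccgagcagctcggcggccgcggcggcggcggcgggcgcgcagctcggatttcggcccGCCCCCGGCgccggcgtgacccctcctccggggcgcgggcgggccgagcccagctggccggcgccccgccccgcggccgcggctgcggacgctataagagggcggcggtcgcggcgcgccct

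The Frizzled genes encode the receptors that bind WNT ligands. Fzd7 was the highest, at 27.83, 30.31 and 20.62 FPKM (26.3 ± 5.03, SD, n = 3), and replicate 4 was the lowest. Fzd7 (ENSMUSG00000041075) has its exons at chr1:59538991-59543791 in mm9. Its share of the summed FPKM of the 10 receptors was 48.9% ± 2.07, and it was 4.69 ± 0.375 times as high as Fzd1, the next in order, with ranges that were apart.

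Below Fzd7, the next receptors each overlapped their neighbour in the order. Fzd1 was at 6.12, 5.92 and 4.67 FPKM (5.57 ± 0.786), Fzd6 at 5.05, 5.46 and 4.80 (5.10 ± 0.333) and Fzd2 at 4.59, 5.37 and 2.94 (4.30 ± 1.24). Fzd3, which like Fzd6 is known for planar cell polarity, was at 4.22, 3.78 and 4.85 FPKM (4.28 ± 0.538), and Fzd8 at 3.66, 4.21 and 2.54 (3.47 ± 0.851). Replicate 4 was the lowest for Fzd1, Fzd2, Fzd6 and Fzd8 and the highest for Fzd3. The ranges of neighbours in this order overlapped from Fzd1 to Fzd8, while Fzd1 and Fzd6 lay above Fzd8 without overlap. Among the overlapping neighbours, Fzd6 was above Fzd2 in 3 of 3 replicates and each of the other pairs kept its order in 2 of 3. Fzd8 was above Fzd5 (2.49, 2.29 and 2.18 FPKM) in all replicates, by 1.49 times in the mean and without overlap. Fzd5 and Fzd9 (1.89, 2.31 and 1.32 FPKM) overlapped. The receptors below 1 FPKM were Fzd4, the receptor of norrin, at 0.26, 0.24 and 0.31 FPKM, and Fzd10 at 0.01, 0.02 and 0 FPKM, at most about 3.1 reads in a library. The value of Fzd10 is uncertain, since a pseudogene of the same symbol covers 74.8% of its exon bases on the same strand.

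Among the coreceptors, Lrp5 was at 39.62, 41.87 and 29.40 FPKM (37.0 ± 6.65, SD, n = 3) and Lrp6, its partner in canonical signalling, at 15.47, 13.72 and 16.91 FPKM (15.4 ± 1.60). Lrp5 was the higher gene in 3 of 3 replicates and their ranges were apart, with a ratio of Lrp6 to Lrp5 of 0.390, 0.328 and 0.575. Replicate 4 had the lowest Lrp5 and the highest Lrp6. Ryk, a WNT receptor related to tyrosine kinases, was at 39.36, 37.84 and 31.75 FPKM (36.3 ± 4.03) and overlapped Lrp5. Ror1, the other kinase-like receptor of the members, was at 0.24, 0.20 and 0.23 FPKM, and Ryk was 164, 189.2 and 138 times as high in replicates 1, 3 and 4. Since Ror1 lay far below 1 FPKM, this ratio fell with any constant added to both genes.

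The window upstream of Ryk (ENSMUSG00000032547) is shown because it and that of Fzd3 were the only 2 of 52 with CATGTG or its reverse complement CACATG, the core of the M-box that MITF binds. The match is in capitals, 78 bases before the start. The E-box, which the paper names as a site of MITF and many other factors, was not searched.
Ryk, chr9:102737000-102737249 (+): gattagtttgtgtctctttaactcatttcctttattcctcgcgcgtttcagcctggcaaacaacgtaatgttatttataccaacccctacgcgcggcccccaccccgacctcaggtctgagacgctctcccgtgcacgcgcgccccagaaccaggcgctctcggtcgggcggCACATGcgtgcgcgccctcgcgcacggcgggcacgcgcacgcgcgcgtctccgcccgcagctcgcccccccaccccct

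The secreted antagonists held the most abundant member. Dkk3 (ENSMUSG00000030772, chr7:119259533-119302571, mm9, minus strand) was at 106.32, 100.30 and 112.35 FPKM (106.3 ± 6.03, SD, n = 3), rank 534 of all 22698 genes. It is the divergent member of the Dickkopf family and, unlike Dkk1, is not known as a ligand of Lrp5 and Lrp6. Sfrp1, which binds WNT proteins outside the cell, was at 40.90, 42.24 and 34.65 FPKM (39.3 ± 4.05), rank 1756. Dkk3 was the higher in 3 of 3 replicates without overlap, with Sfrp1 at 0.371 ± 0.0575 of its level. Together these genes made up nearly all of the summed FPKM of the 9 antagonists, with shares of 72.3% ± 3.15 for Dkk3 and 26.7% ± 3.05 for Sfrp1. Sfrp5 was at 0.76, 1.0 and 0.54 FPKM and Wif1, the WNT inhibitory factor, at 0.44, 0.47 and 0.56 FPKM. Sfrp4 was between 0.05 and 0.13 FPKM, and Dkk1, Dkk2, Dkk4 and Sfrp2 were listed at 0 in all replicates. Dkk3 was therefore the only Dickkopf gene of the 4 with a value above 0.

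**Figure D2:**
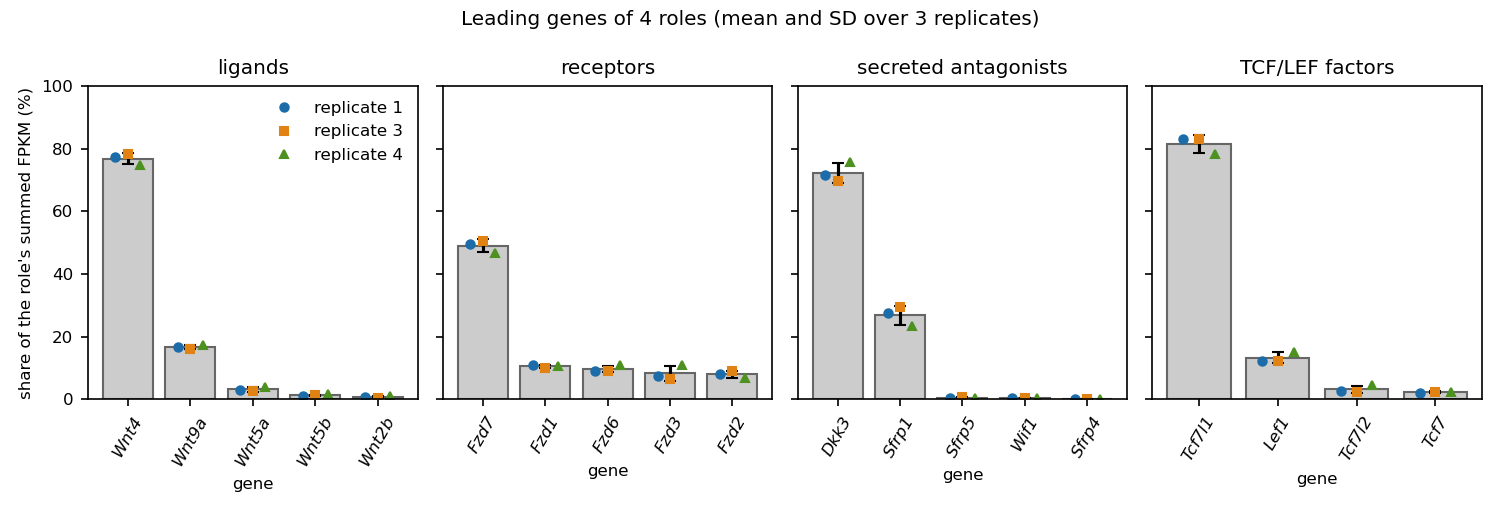
Share of the summed FPKM of a role taken by its 5 leading genes (4 for TCF/LEF factors), for ligands, receptors, secreted antagonists and TCF/LEF factors. Bars are means and error bars SD over 3 replicates, with 1 point per replicate. Wnt4 (76.8%), Dkk3 (72.3%) and Tcf7l1 (81.4%) each exceed the rest of their role combined, and Fzd7 (48.9%) has nearly as much as all remaining receptors.

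All 3 Dishevelled genes, which relay the signal from Frizzled, were between 10.89 and 27.48 FPKM in every replicate. Dvl1 was at 24.41, 27.48 and 19.61 FPKM (23.8 ± 3.97, SD, n = 3), Dvl3 at 17.16, 15.75 and 16.17 (16.4 ± 0.724) and Dvl2 at 14.01, 14.09 and 10.89 (13.0 ± 1.83). Their ranges were apart in this order, and Dvl3 was 0.703, 0.573 and 0.825 of Dvl1. Of the exon bases of Dvl2, 18.3% overlap Acadvl on the opposite strand, and reads of the 2 genes cannot be told apart if strand was not used in counting. The order of Dvl1 and Dvl3 rests on the length assigned to each gene. Restated per base of the longest coding transcript in place of the joined exons, Dvl1 came to 35.5 ± 5.90 and Dvl3 to 32.1 ± 1.42 FPKM, and their ranges overlapped.

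In the destruction complex, Axin1, the scaffold, was at 13.38, 13.28 and 9.77 FPKM (12.1 ± 2.06, SD, n = 3), and Apc was at 7.46, 5.62 and 9.59 FPKM (7.56 ± 1.99). Axin2, a scaffold that is itself induced by canonical signalling in many tissues, was at 2.65, 2.39 and 2.54 FPKM (2.53 ± 0.131). Replicate 4 was the lowest for Axin1 and the highest for Apc, while Axin2 varied least of the 3. Axin1 was 5.05, 5.56 and 3.85 times as high as Axin2. The ranges of all 3 genes were apart, although Axin1 and Apc overlapped when restated per base of the longest coding transcript.

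The TCF/LEF factors bind DNA and recruit beta-catenin. Tcf7l1 (ENSMUSG00000055799, chr6:72576372-72739248, mm9, minus strand), the family member known mainly as a repressor, was at 44.65, 46.37 and 34.62 FPKM (41.9 ± 6.35, SD, n = 3), rank 1668. Lef1 (ENSMUSG00000027985, chr3:130813389-130927274, mm9, plus strand), the family member tied to melanocyte genes, was at 6.61, 6.82 and 6.73 FPKM (6.72 ± 0.105), rank 6597. The ranges were apart, and Tcf7l1 was 6.23 ± 0.943 times as high as Lef1, higher in 3 of 3 replicates. Tcf7l1 made up 81.4% ± 2.83 and Lef1 13.2% ± 1.70 of the summed FPKM of the 4 factors.

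Tcf7l2 was at 1.49, 1.24 and 1.94 FPKM (1.56 ± 0.355) and Tcf7 at 1.08, 1.36 and 1.02 FPKM (1.15 ± 0.181), and these overlapped. Both were below Lef1 without overlap, with Tcf7l2 at 0.225, 0.182 and 0.288 of Lef1. Tcf7l1 was 30.0, 37.4 and 17.8 times as high as Tcf7l2. Some of these ratios depend on the length used. Lef1 has 8654 bases of joined exons but 3482 in its longest coding transcript, and Tcf7l2, with 24 annotated transcripts, has 8739 and 4295, whereas Tcf7l1 has 3323 and 3042. Restated per base of the longest coding transcript, Lef1 came to 16.7 ± 0.262 FPKM and Tcf7l1 to 45.7 ± 6.93, a ratio of 2.74 ± 0.414. The order of the 4 factors was unchanged by this, with Tcf7l2 (3.17 ± 0.722) then apart from Tcf7 (1.27 ± 0.199). The lengths that entered the FPKM are not given in the sources used here.

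Shown are the windows of 250 bases upstream of Tcf7l1, the highest factor, and of Tcf7, the lowest by mean. The reason is that Tcf7 was the only one of the 4 with the TCF/LEF core CTTTGA or its reverse complement TCAAAG. In the window of Tcf7, capitals mark GCCCCCGGC, 220 bases before the start, and CTTTGA, 195 bases before the start. None of the letters searched were in the window of Tcf7l1, which says only that these letters are not there. The shorter GCCNNNGG of the paper was not among them.
Tcf7l1, chr6:72739249-72739498 (-): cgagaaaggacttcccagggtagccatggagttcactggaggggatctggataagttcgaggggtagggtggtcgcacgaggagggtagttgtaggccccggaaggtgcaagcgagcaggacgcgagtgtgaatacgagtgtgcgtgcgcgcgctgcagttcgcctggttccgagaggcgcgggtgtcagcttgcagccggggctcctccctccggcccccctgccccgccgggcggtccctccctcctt
Tcf7, chr11:52096682-52096931 (-): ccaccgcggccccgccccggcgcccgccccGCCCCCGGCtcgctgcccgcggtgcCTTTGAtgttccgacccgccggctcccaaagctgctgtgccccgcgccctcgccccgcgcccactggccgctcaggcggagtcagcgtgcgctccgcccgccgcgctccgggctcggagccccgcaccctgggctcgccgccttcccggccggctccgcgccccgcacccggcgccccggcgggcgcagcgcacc

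Over all 52 windows, the TCF/LEF core was found in 7 (13.5%), beside 13.3% of all 22315 windows of the same length. The M-box core was found in 2 (3.85%), beside 10.4%. The letters GCCNNNGGC, read once since they are their own reverse complement, were found in 13 (25.0%), beside 14.9% of all windows. By level, 2 of the 24 WNT genes at 1 FPKM or more in all replicates had them (8.33%), namely Wnt4 and Tcf7. Of the 28 other members 11 had them (39.3%), namely Wnt9a, Wnt5b, Wnt11, Wnt6, Wnt10b, Wnt3, Wnt3a, Wnt16, Fzd4, Fzd10 and Sfrp4. Wnt9a missed that level only in replicate 4 (0.91 FPKM). The shares over all genes at each level were not counted, so no background stands beside this split and nothing is read from it. GC content moved with these letters, with a median of 72.8% in the 13 member windows that had them and 64.0% in the 39 that did not, and of 64.4% and 52.8% over all genes. The 52 member windows had a median GC content of 65.6%, beside 54.4% over all genes. The part of GC content in the counts of any of the motifs was not tested. Windows with a ratio of observed to expected CpG over 0.6 belonged to 22 of the 24 members at 1 FPKM or more (91.7%), beside 69.7% of all genes at that level, and to 4 of the 10 members listed at 0 (40.0%), beside 10.3% of all genes at 0.

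**Figure D3:**
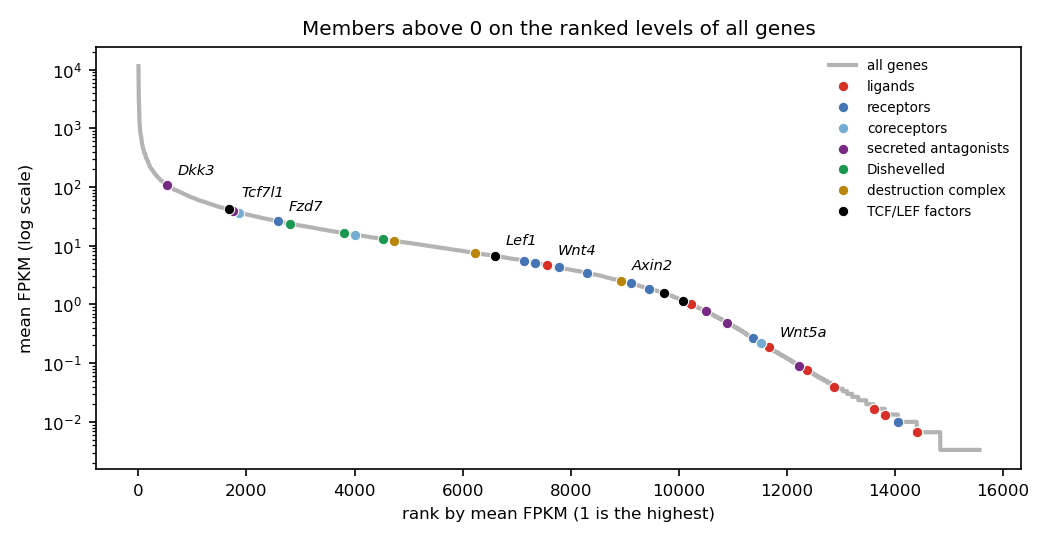
Mean FPKM over 3 replicates (log axis) of all genes above 0, ordered by rank (grey line), with the 42 WNT genes above 0 as points coloured by role. Dkk3 is the highest at rank 534, and Tcf7l1 (1668) and Fzd7 (2580) follow among the labelled genes. All ligands above 0 but Wnt4 lie at rank 10222 (Wnt9a) or beyond.

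The other genes of the pathway were taken from lists of 64. Of these, 41 (64.1%) were at 1 FPKM or more in all replicates, beside 44.1% of all genes. A further 3 (4.69%) were listed at 0 in all replicates, beside 31.4% of all genes. In ligand secretion, Wls, which carries WNT proteins to the cell surface, was at 64.65, 57.10 and 68.26 FPKM, and the acyltransferase Porcn at 6.66, 8.38 and 5.80 FPKM, while Notum, which removes the lipid, was at 0.08 FPKM or less.

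Of the R-spondin axis, in which Lgr receptors and R-spondins keep Frizzled proteins on the surface, only Lgr6 of 9 genes passed 1 FPKM, at 98.77, 109.72 and 75.38 FPKM (94.6 ± 17.5, SD, n = 3). Lgr4 was at 0.88, 0.76 and 0.81 FPKM, Lgr5 at 0.02 FPKM or less and the R-spondins at 0.10 FPKM or less. The ligases on which this axis acts were low, with Znrf3 at 0.12 to 0.17 FPKM and Rnf43 at 0.01 FPKM or less. Of other coreceptors, Kremen1, a partner of Dickkopf proteins, was at 2.61, 2.56 and 1.73 FPKM, and Ptk7 at 0.05 to 0.07 FPKM. Of other secreted inhibitors, Frzb, the gene also called Sfrp3, was at 3.80, 3.95 and 4.10 FPKM, and Apcdd1 at 0.18 to 0.24 FPKM.

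All 12 further genes of beta-catenin and its destruction complex were at 1 FPKM or more. Ctnnb1, which encodes beta-catenin, was at 180.91, 161.09 and 180.67 FPKM (174.2 ± 11.4, SD, n = 3), and the kinase gene Gsk3a at 82.10, 92.52 and 61.40 FPKM. The 12 nuclear cofactors also all passed, led by the Groucho-related gene Aes (725.21, 829.51 and 571.96 FPKM) and the corepressor Ctbp1 (69.28, 78.55 and 56.81 FPKM). Of 9 planar polarity genes 5 passed (55.6%, beside 44.1% of all genes), with Vangl1 at 14.66, 14.78 and 14.50 FPKM and Daam1 at 9.74, 7.77 and 12.35 FPKM.

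Of 9 common WNT target genes 7 passed (77.8%, beside 44.1% of all genes). Dct, a melanin enzyme, and Ccnd1 (920.40, 1123.71 and 779.51 FPKM), which drives the G1 phase, were the highest. Mitf was at 22.27, 17.40 and 26.77 FPKM. The feedback inhibitor Nkd2 was at 68.44, 76.68 and 67.42 FPKM whereas its paralog Nkd1 was at 0.16 to 0.27 FPKM, and Sp5 was at 0.03 FPKM or less. These genes have many inputs, and their levels in 1 condition do not measure WNT signalling. Nkd2, Nkd1 and Sp5 were named after their values were seen, as were Kit, Notum, Lgr5, the R-spondins, Znrf3 and Rnf43 above.

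Between replicates, 5 of the 24 WNT genes at 1 FPKM or more in all replicates differed by more than 1.5-fold from the lowest to the highest replicate, beside 18.8% of the 10011 genes at that level. They were Fzd2 (1.83-fold, coefficient of variation 28.9%), Fzd9 (1.75-fold, 27.0%), Apc (1.71-fold, 26.3%), Fzd8 (1.66-fold, 24.5%) and Tcf7l2 (1.56-fold, 22.8%). In each of the 5, replicates 3 and 4 were the extremes. Without replicate 4 none of the 24 passed 1.5-fold. Lef1 was the steadiest, with a coefficient of variation of 1.57%, against a median of 14.4% over the members and 11.4% over all genes.

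Replicate 4 was the lowest for 16 of the 24 members, beside 45.6% of all genes, and the highest for 5. The 16 had a median transcript GC content of 56.3% (range 46.0 to 62.2%), and the 5 a median of 46.0% (43.7 to 51.0%). The members were richer in GC (median 54.9%) than all genes at that level (50.5%). Across the 24 members, Spearman's rho between the log2 ratio of replicate 3 over 4 and GC content was 0.71, and across all 10006 genes with a transcript it was 0.78. For replicate 1 over 4 it was 0.72 and 0.70, and for replicate 1 over 3 it was -0.55 and -0.72. Genes are not independent replicates and share the libraries, and these values are a description. Fzd2, Fzd9 and Fzd8, with more GC, were lowest in replicate 4, and Apc and Tcf7l2, with less, were highest there. The part of GC content in these differences was not tested.

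**Figure D4:**
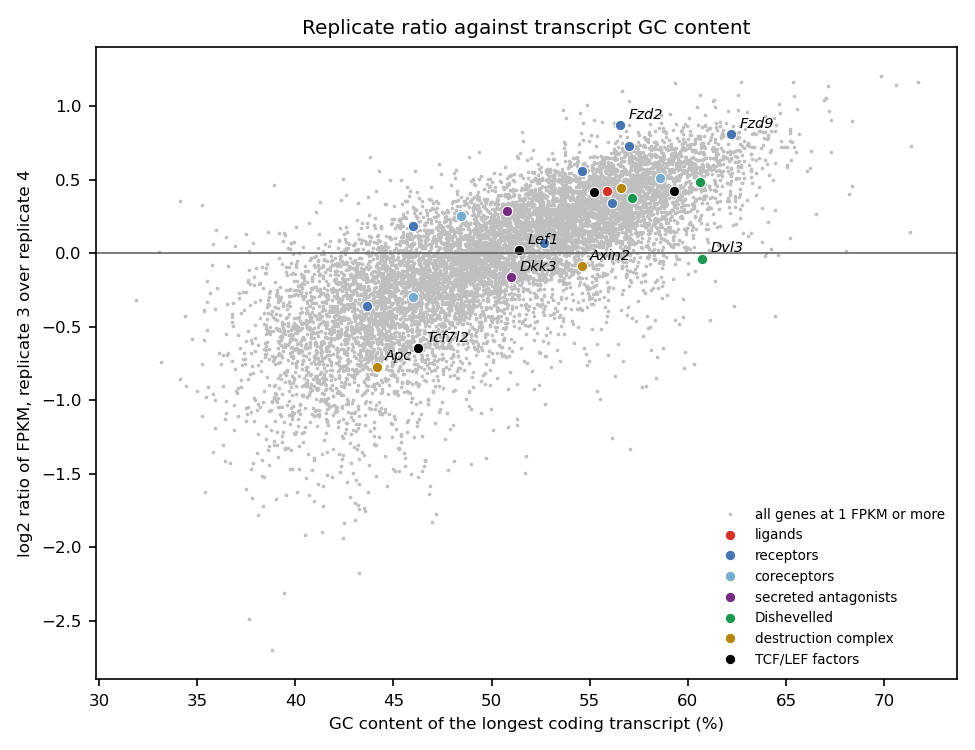
Log2 ratio of FPKM in replicate 3 over replicate 4 against the GC content of the longest coding transcript, for genes at 1 FPKM or more in all replicates (grey) and the 24 WNT genes among them, coloured by role. The ratio increases with GC content (Spearman's rho 0.78 over all genes, 0.71 over the members), Fzd2 and Fzd9 lie above 0 and Apc and Tcf7l2 below it.

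Within the roles, 11 of 18 pairs of neighbours in the order of levels had ranges that were apart and 7 overlapped. Both genes of a pair were measured in the same libraries, and the overlap of ranges does not use this pairing. No p-value is given for them, since an exact permutation test of 3 against 3 values cannot go below p = 0.1 (two-sided).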

How the data were processed

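RNA-seq of untreated melan-a cells was available for 3 replicates of 1 condition, grouped by their labels. The authors deposited an FPKM value for every gene in each replicate, which they had scaled with TMM (trimmed mean of M values). The files carry 2 decimals. Per the study's methods and processing notes, stranded mRNA libraries were sequenced, the 10 5′-most bases were trimmed, and reads were aligned to mm9 with STAR 2.3.0e, cleared of rRNA and counted on Ensembl release 67 with htseq-count 0.5.3p3. edgeR is named among the tools, but the gene lengths, the conversion to FPKM and the strand setting are not given in the sources used here. Raw counts were not used here, so no count model was applied.

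Symbols, positions, lengths and GC content came from a table of gene names and from Ensembl 65 on mm9, where 22324 of the 22698 genes were found. The symbol rule matched 53 gene identifiers, of which the second Fzd10 had no value. Scaled library sizes were those at which low values fell closest to whole reads (mean distance 0.0444, 0.0486 and 0.0644 reads). Genes with 1 transcript of at most 500 bases and under 12 reads were used for this. The search was tested only on simulated counts made with the same gene lengths and without TMM scaling. That test therefore does not cover the lengths and scaling used by the authors. For genes with several transcripts, reads were taken over the joined exons, which is an assumption. The intervals and floors cover counting error only.

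Each member was described by its value per replicate, mean and SD. Neighbours in a role were called apart where their ranges did not overlap. Named were all members with a mean of at least 1 FPKM, the 2 highest lower members per role, the remaining members by range, the 5 with the largest coefficient of variation, and the 2 highest genes of every other list with Ctnnb1, Mitf, Dct and Cdkn2a. Genes named outside this rule are marked in the text as named after their values were seen. The result of 1 marker list is not reported here. Members and lists were chosen with earlier results of these data known. Alternatives were each replicate left out, the median, rescaling to a sum of 1000000, other thresholds, folds and pseudocounts. Those for shares, for the ratios of Tcf7l1 to Lef1 and Sfrp1 to Dkk3, and for the length of the longest coding transcript were chosen after seeing the data. Python 3.11.15, numpy 2.4.6, pandas 2.3.3, scipy 1.17.1 and matplotlib 3.10.9 were used.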

Additional observations from a re-analysis of the deposited data

How the results depend on the processing

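The count of 24 WNT genes at 1 FPKM or more lay between 21 and 27 under the other thresholds, the rescaling and each replicate left out, and the count of 11 neighbours apart between 10 and 14. Counting genes at 0 in at least 1 replicate gave 16 members in place of 10, and ranking only genes above 0 in all replicates gave a median rank of 8036.5 in place of 10696.5. The 5 members past 1.5-fold became 15 when the highest replicate had to exceed the lowest by 25%, 11 without the filter on low values, and 0 to 5 with a replicate left out (0 without replicate 4, 1 without replicate 3). A pseudocount of 1 FPKM gave ratios of 0.331 for Tcf7l2 to Lef1, 17.2 for Tcf7l1 to Tcf7l2, 3.73 for Axin1 to Axin2 and 30.5 for Ryk to Ror1, the last being 113 with 0.1 FPKM. These shifts come from the construction, since a constant weighs most on the lower gene. With the longest coding transcript as length, Tcf7l1 to Tcf7l2 was 15.2, Axin1 to Axin2 3.78, Dvl3 to Dvl1 0.923 and Tcf7l1 to Lef1 2.74. The mean ratios kept their direction, but in replicate 4 Dvl3 was then above Dvl1 and Apc above Axin1, and Fzd3 came before Fzd2 in the order. Rescaling to a sum of 1000000 changed the unit and moved all 42 levels above 0. Depth limits the 9 members whose mean was above 0 but under 3 reads of the shallowest library, and the 10 listed at 0.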
